A study of Rattus norvegicus with 36 samples.

Results

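The genes described here are 42 components of the cellular responses to misfolded protein, listed by name from among chaperones, folding enzymes, degradation factors and stress transcription factors, of 14217 genes measured on the array. Of the 42 genes, 40 had at least 1 probe set naming that gene alone and were taken by the probe set of highest mean. Hspa8 was measured only by a probe set that also names Haus8l2, and Hsp90aa1 only by 2 probe sets that also name a pseudogene, Hsp90aa1-ps17, so their values are uncertain and stand apart. The study gave decabromodiphenylethane (DBDPE), a brominated flame retardant, to male Sprague Dawley rats that were 7 weeks old at the start. Groups of 6 rats were gavaged (5 ml/kg) on 5 days with corn oil vehicle alone, with DBDPE at the low doses of 0.1, 0.97 and 9.71 mg/kg, or with DBDPE at 97.1 mg/kg or at 970 mg/kg. The left liver lobe was taken 1 day after the last dose. Each sample is whole liver RNA on 1 array, and the samples of a group, which the labels number, were each taken to come from a separate rat. If they did not, the p-values measure only the spread between these samples.

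Proteins that enter the endoplasmic reticulum (ER) are folded there by chaperones such as BiP, the product of Hspa5, and by enzymes that form disulfide bonds. When unfolded protein builds up, the sensors PERK, IRE1 and ATF6 start the unfolded protein response, in which the transcription factors ATF6 and XBP1 raise ER chaperone genes and ATF4 raises genes of amino acid supply and of stress signalling. In the cytosol the factor HSF1 raises Hsp70, Hsp90 and their cochaperones, and hepatocytes, which secrete most plasma proteins, carry a large folding load.

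The arrays were even and the exposure was visible in them. Pairs of arrays correlated at r = 0.993 to 0.997 across probe sets, and all 6 measured hepatocyte markers averaged at least 13.4 on the log2 scale. Cyp1a1, a cytochrome P450 induced through the aryl hydrocarbon receptor, had log2 signals of 10.02 to 11.81 (median 10.81) at 970 mg/kg, against 4.35 to 4.76 (median 4.55) in vehicle, with no overlap. Its log2 fold change was 6.23 (95% interval 5.66 to 6.80, limma adjusted p = 9.19e-18). Cyp1a2 rose as well, by 0.86 on the log2 scale (limma adjusted p = 9.91e-12), and these 2 were the only probe sets of 31042 called at 970 mg/kg with limma at an adjusted p under 0.05.

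None of the 40 folding-stress genes passed that threshold at any dose, over the 5 doses together, or for a trend over the dose step. At 970 mg/kg limma called 0 of 40 members, beside 0.00644% of all probe sets. At an unadjusted p under 0.05 it picked out 2 members, both lower, beside 4.87% of all probe sets (2.49% lower). The members' median log2 fold change at 970 mg/kg was -0.05, against -0.0040 for all probe sets, and 12 of 40 were above 0, beside 48.1% of all probe sets. For 35 of 40 members the 95% interval lay within 1.5-fold of no difference, beside 97.8% of all probe sets. Whole liver was measured, so fewer cells of a type and less RNA per cell cannot be told apart. The number of arrays limits the precision of each of these values.

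**Figure D1:**
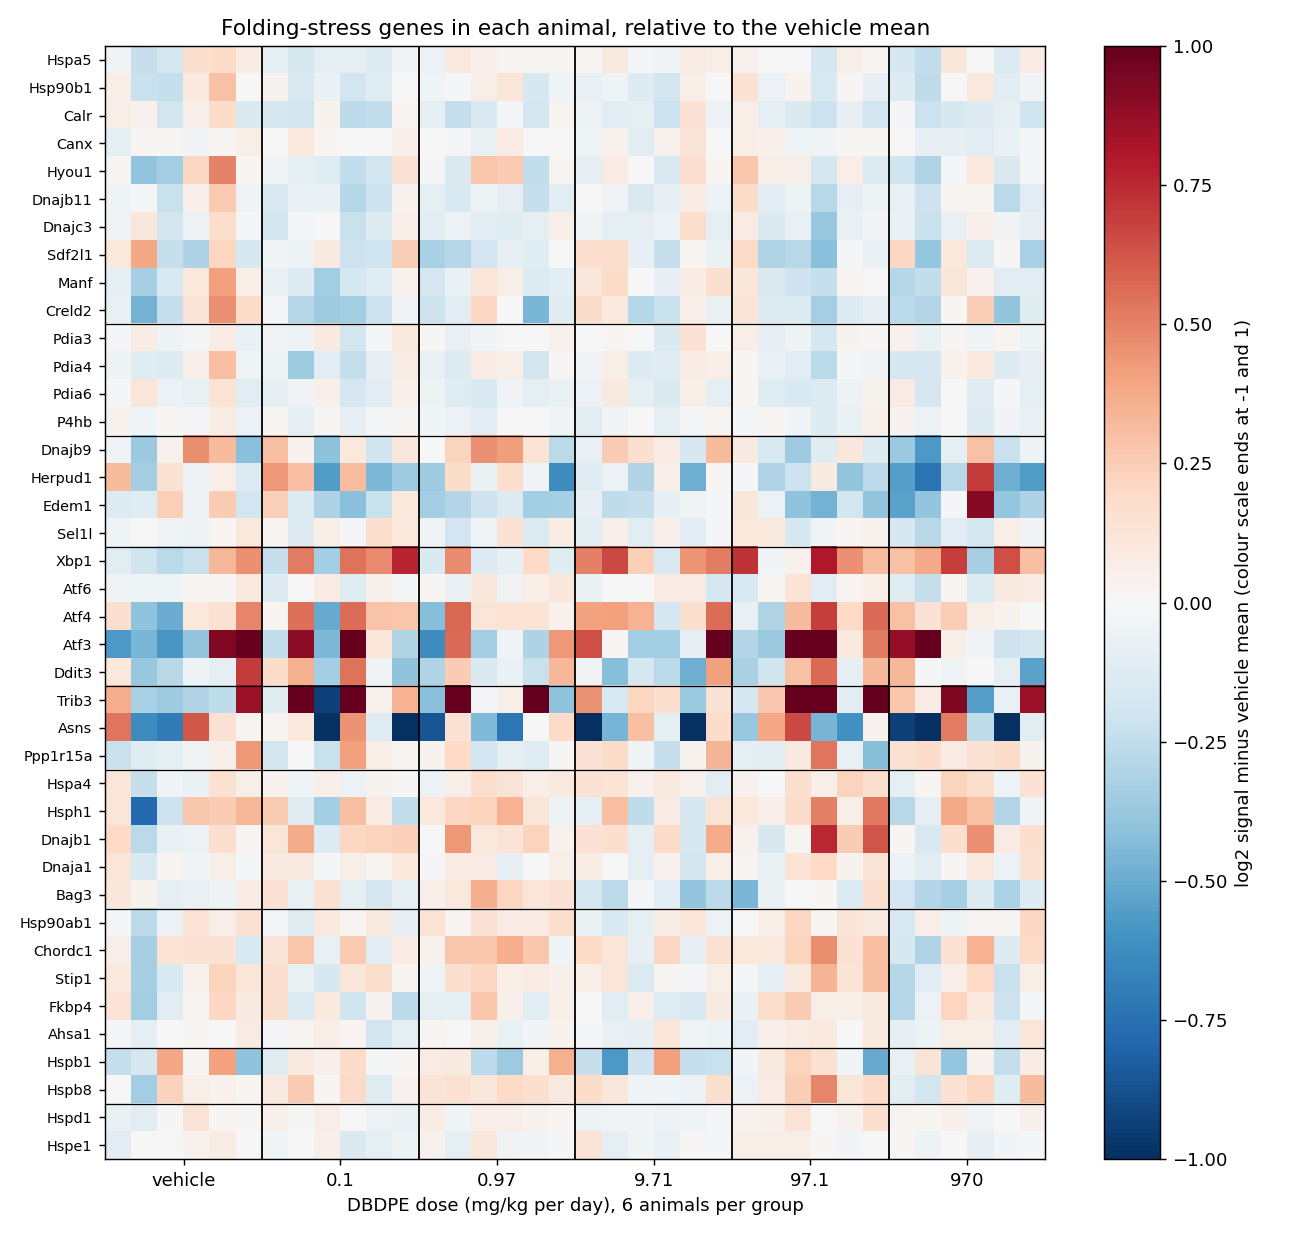
Heat map of the log2 signal of 40 folding-stress genes (rows, grouped by role with black lines) in each of 36 rats (columns, grouped by dose in mg/kg per day), minus the vehicle mean. Atf3, Trib3 and Asns vary most between rats, while Canx, P4hb, Hspd1 and Hspe1 are nearly uniform.

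The ER chaperones were all slightly below vehicle at 970 mg/kg, and none passed the test. Hspa5, the ER Hsp70 chaperone BiP, had log2 signals of 12.13 to 12.49 (median 12.31) at 970 mg/kg, against 12.15 to 12.56 (median 12.40) in vehicle. The groups overlapped, with 1 of the 6 rats at 970 mg/kg below all vehicle rats, and the log2 fold change was -0.06 (95% interval -0.18 to 0.07, limma adjusted p = 0.979). Hsp90b1, the ER Hsp90 called GRP94, had 11.79 to 12.16 (median 11.98) at 970 mg/kg, against 11.82 to 12.34 (median 12.08) in vehicle. These ranges overlapped as well, with a log2 fold change of -0.07 (95% interval -0.21 to 0.08). Calr encodes calreticulin, a lectin-type chaperone for glycoproteins. It had 10.96 to 11.15 (median 11.03) at 970 mg/kg, against 10.99 to 11.36 (median 11.22) in vehicle. Its log2 fold change of -0.14 had an unadjusted p of 0.0450 and a limma adjusted p of 0.966.

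Over the 10 ER chaperones, which also include the membrane lectin Canx, the large Hsp70-like nucleotide exchange factor Hyou1, the BiP cochaperones Dnajb11 and Dnajc3, and Sdf2l1, Manf and Creld2, the log2 fold changes at 970 mg/kg lay between -0.14 and -0.06. All 10 were below 0, with a median of -0.09, and all 10 intervals lay within 1.5-fold. The counts below 0 were 9 of 10 at 0.1 mg/kg, 8 at 0.97 mg/kg, 6 at 9.71 mg/kg and 8 at 97.1 mg/kg. These comparisons share their vehicle rats, and 1 of those, vehicle rat 5, had the highest deviation from its group mean among all 36 rats for 8 of the 40 members (median deviation over the members 0.15). Vehicle rat 2 lay on the other side, with the lowest deviation of all 36 rats for 12 members (median deviation -0.21). The 4 disulfide isomerases (Pdia3, Pdia4, Pdia6 and P4hb) were also all below 0 at 970 mg/kg, with a median of -0.05. The same held at 97.1 mg/kg (median -0.05), 0.97 mg/kg (-0.04) and 0.1 mg/kg (-0.04), and 3 of the 4 were below 0 at 9.71 mg/kg (-0.03).

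The 4 genes of ER-associated degradation, which returns misfolded protein to the cytosol for disposal, had a median log2 fold change of -0.15 at 970 mg/kg, and all 4 were below 0. Dnajb9, a BiP cochaperone that helps route misfolded protein and also restrains IRE1, had 8.75 to 9.62 (median 9.17) at 970 mg/kg, against 8.91 to 9.79 (median 9.33) in vehicle. The overlap was nearly complete and the log2 fold change was -0.17 (95% interval -0.46 to 0.12). Sel1l, the adaptor of the HRD1 ubiquitin ligase, had 8.20 to 8.54 (median 8.34) at 970 mg/kg, against 8.43 to 8.58 (median 8.46) in vehicle. Its log2 fold change of -0.12 had an unadjusted p of 0.0628 and a limma adjusted p of 0.966.

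Herpud1, an ER membrane organiser of degradation, and Edem1, a lectin that extracts misfolded glycoproteins, both had 1 rat far above the rest at 970 mg/kg. Herpud1 read 10.21, 10.03, 10.48, 11.46, 10.28 and 10.21 in the 6 rats at 970 mg/kg, against 10.42 to 11.08 (median 10.77) in vehicle. Edem1 read 10.58, 10.72, 11.09, 12.02, 10.73 and 10.81 in the same 6 rats, against 10.92 to 11.37 (median 11.03) in vehicle. Rat 4 of the 970 mg/kg group held the highest value of both genes. The other Edem1 probe sets also had their highest value in that rat, 9.35 beside 8.30 to 8.65 in the other rats on one and 9.65 beside 8.95 to 9.20 on another. Among the members, that rat was next farthest above its group mean for Dnajb9, by 0.46, and for Creld2, by 0.38. It lay farthest below its group mean for Trib3 (-0.81) and for the transcription factor Xbp1 (-0.66, the lowest Xbp1 deviation of all 36 rats), and Hspa5 deviated there by 0.06.

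The stress transcription factors varied widely between rats and showed no called dose difference. Xbp1, spliced by IRE1 into the main activator of ER folding and degradation genes, had 11.31 to 12.33 (median 11.98) at 970 mg/kg, against 11.38 to 12.10 (median 11.49) in vehicle. Its log2 fold change was 0.33 at 970 mg/kg (95% interval -0.05 to 0.70), and spliced and unspliced RNA were not told apart here. Atf4, the effector of the PERK branch, had 10.46 to 10.75 (median 10.56) at 970 mg/kg, against 9.96 to 10.94 (median 10.58) in vehicle. The vehicle rats enclosed all rats at 970 mg/kg, and the log2 fold change was 0.13 (95% interval -0.22 to 0.48). Ddit3, which encodes the death-linked factor CHOP, had 6.14 to 7.00 (median 6.64) at 970 mg/kg, against 6.29 to 7.37 (median 6.60) in vehicle. Atf6, the sensor and factor cleaved in the Golgi, and Atf3, an inducible factor with a mean log2 signal of 5.73, had log2 fold changes of -0.05 and 0.29 at that dose.

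Among the targets of the integrated stress response, the arm of translation control shared with amino acid shortage, Asns had the largest size of log2 fold change of all members at 970 mg/kg. Asns, which makes asparagine, had 6.28 to 8.23 (median 7.12) at 970 mg/kg, against 7.02 to 8.34 (median 7.81) in vehicle. The ranges overlapped and the log2 fold change was -0.55 (95% interval -1.26 to 0.15, limma adjusted p = 0.966). Trib3, a pseudokinase that restrains ATF4 and CHOP, had 6.44 to 7.93 (median 7.17) at 970 mg/kg, against 6.65 to 7.86 (median 6.72) in vehicle. Ppp1r15a, the phosphatase subunit GADD34 that restores translation, had a log2 fold change of 0.13 at that dose (95% interval -0.10 to 0.37).

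The cytosolic chaperones contained the member with the smallest p of the dose comparisons. Bag3, a cochaperone of Hsp70 that links it to small heat shock proteins and to selective autophagy, had 7.85 to 8.05 (median 7.94) at 970 mg/kg, against 8.08 to 8.29 (median 8.17) in vehicle. These ranges did not overlap, which held for 1 of 40 members and for 0.200% of all probe sets. At the other doses it held for 0 of 40 members, beside 0.139% of all probe sets at 0.1 mg/kg, 0.235% at 0.97 mg/kg, 0.180% at 9.71 mg/kg and 0.151% at 97.1 mg/kg. The log2 fold change was -0.23 (95% interval -0.39 to -0.08), with an unadjusted p of 0.00479 and a limma adjusted p of 0.966. The group means of Bag3 in order of dose were 8.18 ± 0.09 in vehicle, 8.16 ± 0.14 at 0.1 mg/kg, 8.35 ± 0.11 at 0.97 mg/kg, 7.98 ± 0.13 at 9.71 mg/kg, 8.10 ± 0.21 at 97.1 mg/kg and 7.95 ± 0.09 at 970 mg/kg (SD, n = 6 each). The order of the means did not follow the dose, since 0.97 mg/kg was highest and 4 of its 6 rats lay above all vehicle rats. Over the 5 doses together Bag3 had an unadjusted p of 0.000105 and a limma adjusted p of 0.611.

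Dnajb1, the main HSF1-driven partner of cytosolic Hsp70, had 8.48 to 9.09 (median 8.76) at 970 mg/kg, against 8.37 to 8.84 (median 8.62) in vehicle, and the log2 fold change was 0.12 (95% interval -0.13 to 0.37). At 97.1 mg/kg its 6 rats read 8.68, 8.48, 8.66, 9.39, 8.89 and 9.27, so that rats 4 and 6 stood above the rest. Hspb1, the small heat shock protein Hsp27, had 7.18 to 7.69 (median 7.55) at 970 mg/kg, against 7.16 to 7.97 (median 7.48) in vehicle. Hspd1, the mitochondrial chaperonin Hsp60, had 12.18 to 12.26 (median 12.24) at 970 mg/kg, against 12.11 to 12.34 (median 12.22) in vehicle. The vehicle range enclosed that of 970 mg/kg for both genes. The log2 fold changes were -0.07 for Hspb1 (95% interval -0.36 to 0.21) and 0.02 for Hspd1 (95% interval -0.06 to 0.10).

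The remaining cytosolic members, the Hsp70 exchange factors Hspa4 and Hsph1, the Hsp40 Dnaja1, the Hsp90 gene Hsp90ab1 and its cochaperones Chordc1, Stip1, Fkbp4 and Ahsa1, and the small heat shock protein Hspb8, lay between -0.05 and 0.07 at 970 mg/kg. Hspe1, the chaperonin lid Hsp10, had a log2 fold change of -0.03. The probe set shared by Hspa8, the constitutive cytosolic Hsp70, and Haus8l2 had 12.11 to 12.69 (median 12.33) at 970 mg/kg, against 11.86 to 12.54 (median 12.51) in vehicle. Its log2 fold change was -0.01 (95% interval -0.23 to 0.21). The probe sets shared by Hsp90aa1, the inducible cytosolic Hsp90, and its pseudogene had log2 fold changes of 0.16 and 0.17 at 970 mg/kg, with unadjusted p of 0.0855 and 0.0898.

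**Figure D2:**
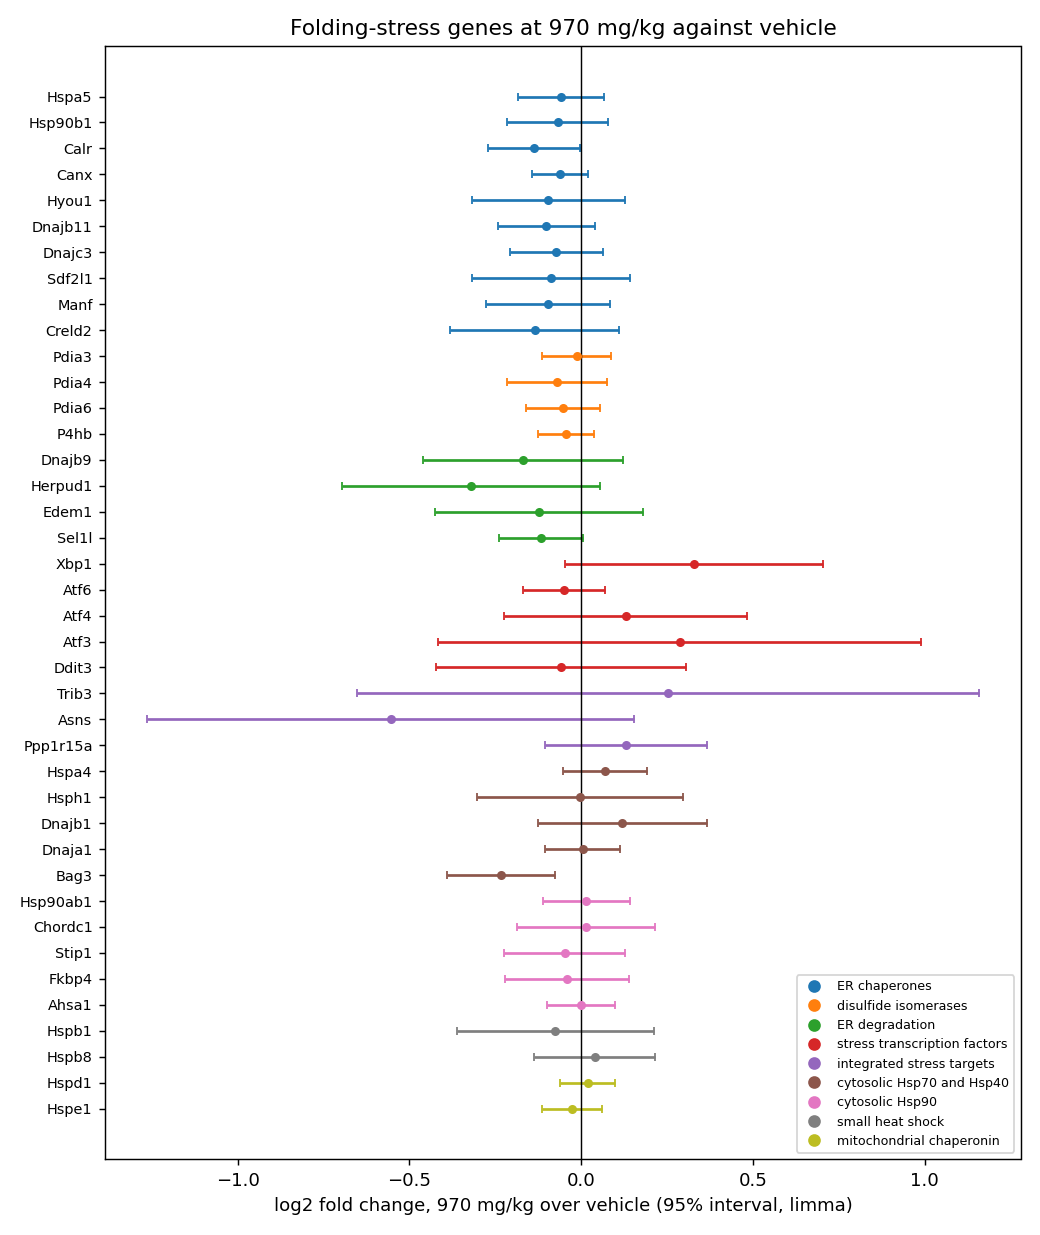
Log2 fold change of 970 mg/kg over vehicle for 40 folding-stress genes (points), with 95% intervals from limma (6 rats per group), coloured by role. All 10 ER chaperones and all 4 genes each of the isomerases and of ER degradation lie left of 0, and Asns and Trib3 have the widest intervals.

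No member passed the threshold at a lower dose, although 5 reached an unadjusted p under 0.05 at 97.1 mg/kg. At 97.1 mg/kg limma called 0 of 40 members, beside 0.00644% of all probe sets, and 5 of 40 had an unadjusted p under 0.05, beside 5.42%. All 5 were higher, beside 2.73% of all probe sets higher. These 5 were Chordc1 with a log2 fold change of 0.22, Dnajb1 with 0.26, Xbp1 with 0.38, Trib3 with 0.92 and Hspb8 with 0.18. Trib3 read 6.83 to 9.40 (median 7.89) at 97.1 mg/kg, and the other 4 doses and vehicle reached from 6.06 to 9.28, so its groups overlapped widely.

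At 9.71 mg/kg, 0 of 40 members were called by limma (0% of all probe sets) and 1 had an unadjusted p under 0.05 (5.06% of all), namely Bag3 at -0.20, with Xbp1 at 0.37 and Atf4 at 0.28 next. At 0.97 mg/kg the counts were 0 called and 1 unadjusted (0% and 4.92% of all), namely Bag3 at 0.17, with Chordc1 at 0.19 and Edem1 at -0.27 next. At 0.1 mg/kg they were again 0 and 1 (0% and 4.46% of all), namely Calr at -0.13, with Pdia4 and Dnajb11 at -0.13 each. The F test over the 5 doses called 0 members and had 1 at an unadjusted p under 0.05 (0.00644% and 4.18% of all), Bag3, with Hspd1 and Xbp1 next. The trend over the dose step called 0 and had 2 unadjusted (0.00644% and 5.70% of all), Bag3 at -0.05 and Xbp1 at 0.07 log2 units per step, with Herpud1 at -0.06 next.

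**Figure D3:**
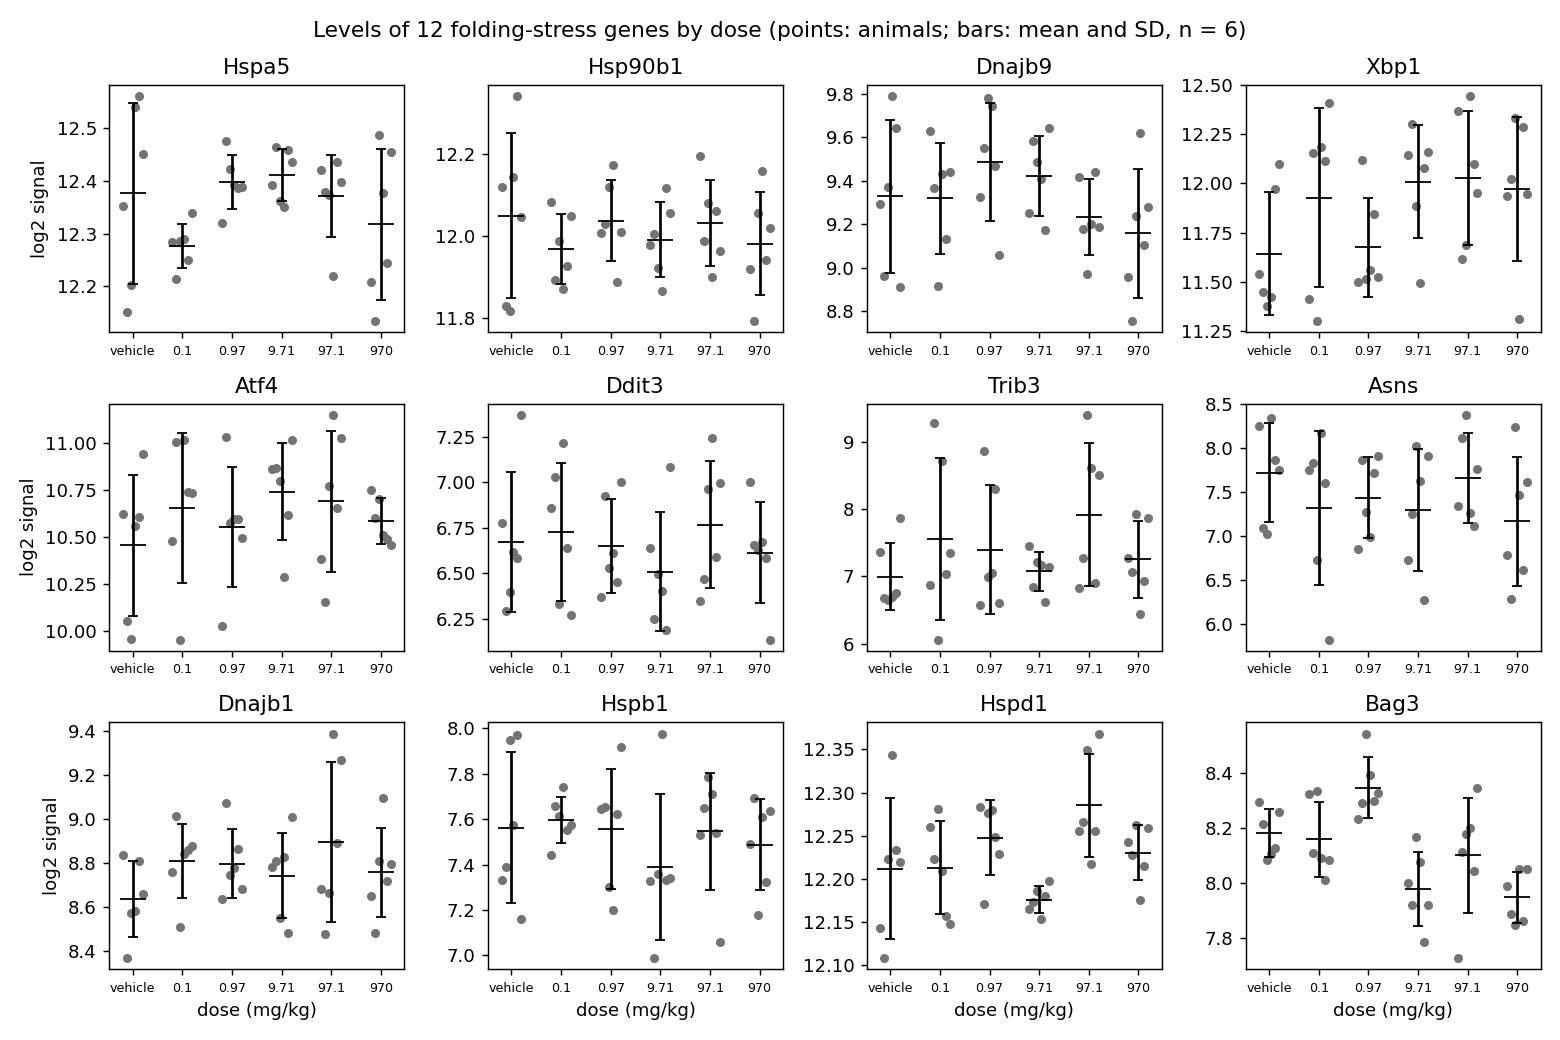
Log2 signal of 12 folding-stress genes in each rat (points) by dose in mg/kg, with group mean and SD (bars, n = 6). Hspa5 is most spread in vehicle and at 970 mg/kg, and the Bag3 values at 970 mg/kg all lie below those of vehicle.

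The wider machinery around these genes held no called gene at any dose either. Of 112 further listed genes of ER sensing, redox control, translocation, ATF4 targets, cytosolic and mitochondrial folding, 107 were measured, and limma called 0 of them at any dose. At 970 mg/kg 6 of the 107 had an unadjusted p under 0.05, beside 4.87% of all probe sets, a share near that of the list. The smallest p of each list belonged to Eif2ak3 (the sensor PERK, log2 fold change -0.20), Ero1b (-0.37), Sec61a1 (the protein channel, -0.10), Cebpb (0.44), Hspa4l (-0.33), Cct7 (a subunit of the cytosolic chaperonin, -0.05) and Grpel1 (-0.08). Of the ATF4 targets 2 of 18 lay above 0 at 970 mg/kg (median -0.12), so Cebpb differed in direction from most of its list. Above 0 were also 2 of 19 ER redox and quality control genes and 2 of 14 translocation genes, beside 48.1% of all probe sets. The counts were 5 of 10 for ER sensing and 4 of 10 for mitochondrial folding. Among cytosolic genes they were 11 of 28 for the chaperones and 3 of 8 for the chaperonin. Ero1b, an oxidase that recharges disulfide isomerases, had 9.15 to 9.43 (median 9.37) at 970 mg/kg, against 9.37 to 10.08 (median 9.68) in vehicle, with an unadjusted p of 0.000672 and a limma adjusted p of 0.803.

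Some folding-stress genes varied strongly between rats of the same dose group and others hardly at all. The SD between rats within dose groups had a median of 0.154 over the 40 members, against 0.137 over all probe sets, and 15 members lay above the 90th percentile of all probe sets. Trib3 with 0.833, Asns with 0.653 and Atf3 with 0.647 had the widest spread. Hspd1 with 0.052, Canx with 0.054 and P4hb with 0.055 had the narrowest. Among the probe sets nearest in level, the SD of these 3 lay at the percentiles 12.4 to 22.2. Single rats carried part of this spread: vehicle rat 2 lay above its group mean for 8 of the 40 members, and vehicle rat 5 for 36 of 40.

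To ask which genes varied together between rats of the same dose group, each probe set was regressed on the level of 1 marker gene per branch, with the dose group means in the model. The markers were Hspa5 for the ER, Dnajb1 for the cytosolic heat shock genes and Asns for the ATF4 branch. A slope of 1 means that a gene was on average 1 log2 unit higher for each log2 unit of the marker. It does not give the gene's whole spread between rats.

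Among the 39 other members 5 tracked Hspa5, all with slopes above 0, in limma at an adjusted p under 0.05, beside 0.132% of all probe sets (0.119% with slopes above 0). They were Manf, a secreted ER chaperone cofactor, with a slope of 1.20 (95% interval 0.82 to 1.58, adjusted p = 0.00176), Hsp90b1 with 0.93 (0.61 to 1.25, adjusted p = 0.00520), Creld2, a disulfide isomerase-like ER protein, with 1.56 (1.01 to 2.10, adjusted p = 0.00640), Hyou1 with 1.39 (0.90 to 1.89, adjusted p = 0.00740) and Pdia4 with 0.82 (0.46 to 1.17, adjusted p = 0.0379). Of the 39 members 34 had slopes above 0, with a median of 0.42, against a median of -0.01 over all probe sets. At an unadjusted p under 0.05 there were 15 of 39 members, all with slopes above 0, beside 7.79% of all probe sets. All 9 other ER chaperones were above 0, but Dnajb11 with 0.68, Dnajc3 with 0.41, Calr with 0.27, Sdf2l1 with 0.17 and Canx with 0.05 were not called. The isomerases P4hb, Pdia3 and Pdia6 had slopes of 0.09, 0.14 and 0.08.

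The 2 rats farthest from their group mean of Hspa5 were vehicle rats 2 and 5. Hspa5 deviated from the vehicle mean by -0.02, -0.23, -0.17, 0.16, 0.18 and 0.08 in vehicle rats 1 to 6. Hyou1 deviated by 0.02, -0.40, -0.35, 0.20, 0.50 and 0.02 in the same rats, and Creld2 by -0.07, -0.48, -0.23, 0.13, 0.46 and 0.19. Vehicle rat 5 was the highest of all 36 rats for Hspa5, Manf, Hsp90b1, Creld2, Hyou1 and Pdia4, and vehicle rat 2 the lowest for Hspa5, Manf, Creld2 and Hyou1. Without vehicle rat 2 limma called 1 member (Manf), while the slopes of the others were 0.92 for Hsp90b1, 1.42 for Creld2, 1.31 for Hyou1 and 0.89 for Pdia4 (adjusted p 0.0522 to 0.0799). Without vehicle rat 5 it called 3, and Hyou1 (slope 1.20) and Pdia4 (0.70) lost their calls (adjusted p 0.0518 and 0.179). Without both, the slopes of the 5 genes were 0.77 to 1.30 and 0 of 39 members and 0 probe sets were called (adjusted p 0.108 to 0.273). Hspa5 itself varied most in the 970 mg/kg and vehicle groups (SD 0.14 and 0.17), against 0.04 to 0.08 in the other groups, and without those 2 groups the 5 slopes were 0.98 to 1.68 with 0 calls. Pdia4 also lost its call when vehicle rat 3, rat 1 at 0.97 mg/kg, rat 2 at 9.71 mg/kg, rat 4 at 97.1 mg/kg or any of rats 1 to 5 at 970 mg/kg was left out (adjusted p 0.0505 to 0.0793), with slopes of 0.77 to 0.86, close to its 0.82 over all 36 rats.

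**Figure D4:**
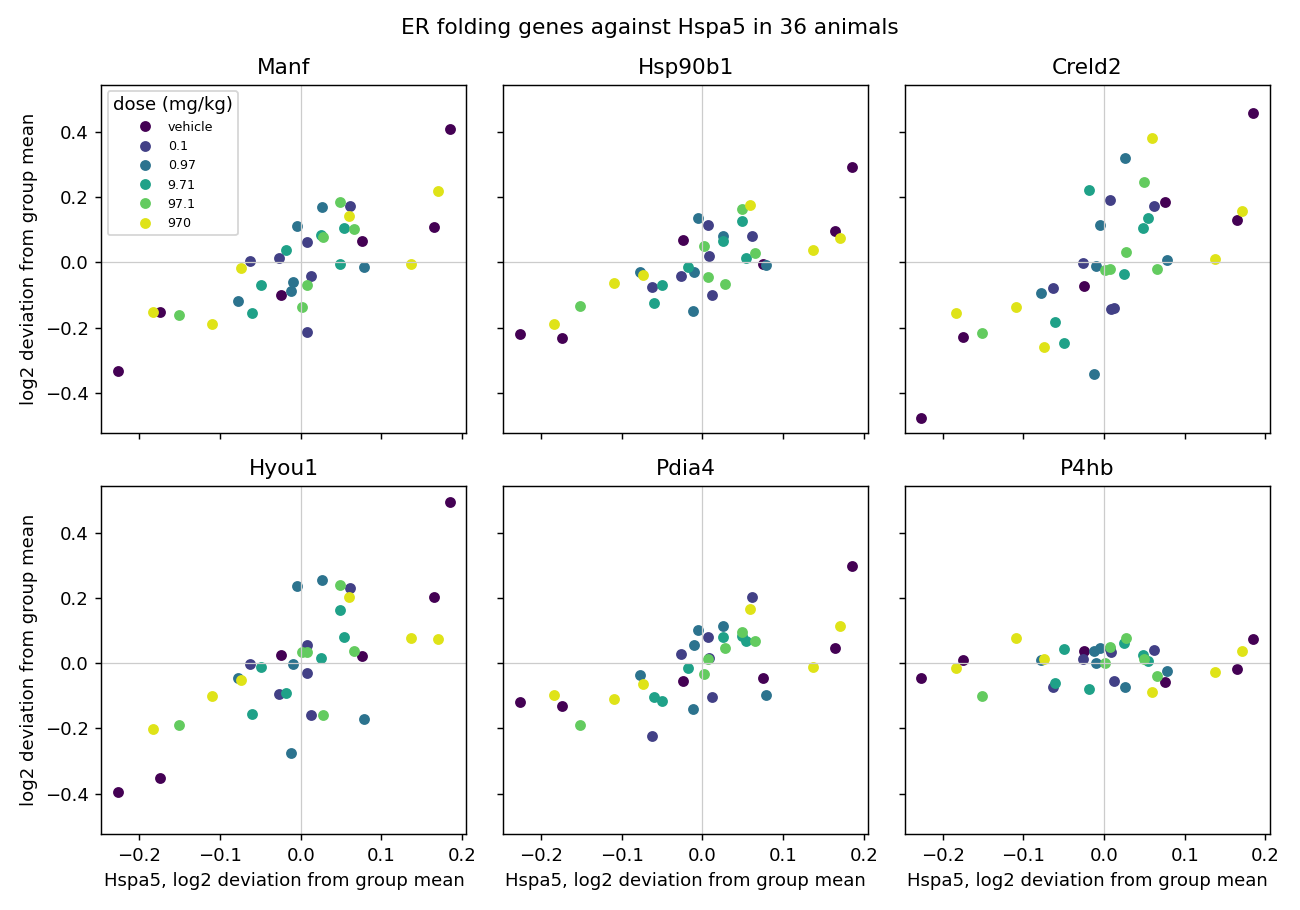
Deviation from the dose group mean in 36 rats (points, coloured by dose in mg/kg, vehicle darkest) for Hspa5 (x axis, log2) and 6 ER folding genes (y axis, log2). Manf, Hsp90b1, Creld2, Hyou1 and Pdia4 rise with Hspa5, with vehicle rats at both ends, while P4hb stays almost flat.

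The promoters of the genes that tracked Hspa5 were searched for the ER stress response element, the known binding site of ATF6 and XBP1 with NF-Y, in RefSeq sequence of the rat build GRCr8. The search covered the 250 bases before the start on both strands and reached 36 of the 42 members. The element, CCAAT and CCACG with any 9 bases between them, was found in 22 of 33469 promoters (0.0657%), among them Hspa5, Hsp90b1, Creld2, Calr, Canx, Dnajc3 and Xbp1. The compact form, ATTGG and CCACG with any 1 base between them, was found in 14 promoters (0.0418%), among them Hyou1 and Herpud1. Calr, Canx, Dnajc3 and Xbp1 hold the element and Herpud1 the compact form but were not called on Hspa5, Pdia4 was called and has no match in this window, and Manf is not in the table used. The stretches are printed below because they belong to the lead ER gene and to 3 genes that tracked it, with matches in capitals, 5′ to 3′ on the gene's strand. A match is a description of the letters, and binding was not measured.
Hspa5, chr3:38452965-38452999 (+), 51 to 17 bases before the start: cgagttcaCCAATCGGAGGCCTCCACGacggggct
Hsp90b1, chr7:23012339-23012477 (-), 184 to 46 bases before the start: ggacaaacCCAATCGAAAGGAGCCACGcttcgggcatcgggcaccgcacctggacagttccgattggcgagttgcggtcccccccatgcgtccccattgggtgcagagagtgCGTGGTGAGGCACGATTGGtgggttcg
Creld2, chr7:121789231-121789265 (+), 153 to 119 bases before the start: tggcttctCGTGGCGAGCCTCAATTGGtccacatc
Hyou1, chr8:53602686-53602812 (+), 196 to 70 bases before the start: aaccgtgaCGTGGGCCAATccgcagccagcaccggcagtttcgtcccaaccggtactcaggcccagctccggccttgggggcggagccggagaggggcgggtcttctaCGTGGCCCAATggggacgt

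Genes outside the list that tracked Hspa5 included Slc35b1, a transporter that carries ATP into the ER, with a slope of 1.32 (limma adjusted p = 0.000774). Next came Paqr9 with 1.44, Alg12, an ER mannosyltransferase of N-glycan assembly, with 1.31, Mettl1 with 1.79, Tmed3, a cargo receptor of early secretion, with 1.73, and Gmppb, which makes GDP-mannose, with 1.37. Of the 107 further folding genes 2 were called, beside 0.132% of all probe sets. These were Syvn1 (the ubiquitin ligase HRD1, slope 0.76) and Hspa13 (an Hsp70 of the microsomal fraction, slope 0.75). Of the markers of other liver and blood cells 0 were called on Hspa5, and their lists lay on both sides of 0. Slopes above 0 were found for 0 of 9 macrophage markers (median -0.43), 0 of 5 cholangiocyte markers (median -0.34) and 1 of 5 B and plasma cell markers (median -0.34), but for 5 of 6 neutrophil markers (median 0.27) and 3 of 4 erythroid markers (median 0.45). The other lists had medians of -0.16 to 0.10. At 970 mg/kg all 9 macrophage markers lay above vehicle, with a median log2 fold change of 0.21 and 0 called (0 at an unadjusted p under 0.05). Against the same vehicle rats all 9 also lay above at 0.1 mg/kg (median 0.19) and at 0.97 mg/kg (median 0.29, 3 at an unadjusted limma p under 0.05). At 9.71 mg/kg 8 of the 9 markers did (median 0.20), and at 97.1 mg/kg 7 (median 0.12). Their summed signal lay between 11.68 and 12.28 at 970 mg/kg, against 11.32 to 12.33 in vehicle, on the log2 scale. The defining macrophage marker Clec4f averaged 10.27 and the lowest of the 9, Ptprc, 6.57. The summed neutrophil signal was 8.54 in rat 3 at 970 mg/kg, where Hspa5 deviated by 0.17 from its group mean. In the other rats that signal was at most 7.69. Neutrophil markers averaged from 3.18 (Cxcr2) to 5.91 (S100a9), and erythroid markers from 4.44 (Slc4a1) to 12.18 (Hbb). Array medians were 5.07 to 5.12, so the slopes of several of these markers come from dim probe sets. The part of these cell types in the result was not tested.

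Among the 39 other members 7 tracked Dnajb1 in limma, all with slopes above 0, beside 3.07% of all probe sets (2.47% with slopes above 0). From the cytosol these were Stip1, the adaptor between Hsp70 and Hsp90, with a slope of 0.50 (adjusted p = 0.00126), Chordc1, an Hsp90-binding stress protein, with 0.57 (adjusted p = 0.00159), Dnaja1 with 0.29 (adjusted p = 0.00456), Hsph1 with 0.73 (adjusted p = 0.0137) and Hspb8, the partner of Bag3, with 0.41 (adjusted p = 0.0212). Atf4 had a slope of 0.94 (adjusted p = 0.00392) and Herpud1 one of 0.88 (adjusted p = 0.0195). At an unadjusted p under 0.05 there were 12 of 39 members, beside 15.7% of all probe sets. Of the 10 ER chaperones 0 were called, and 0 had an unadjusted p under 0.05, with slopes of -0.17 to 0.24. Bag3 had a slope of 0.12 and Hsp90ab1 one of -0.05, and neither was called.

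The rats at 97.1 mg/kg, among them the 3 farthest from their group mean of Dnajb1, illustrate the relation with values that went into the calls. Dnajb1 deviated from that group's mean by -0.21, -0.42, -0.23, 0.50, -0.01 and 0.38 in rats 1 to 6. Stip1 deviated by -0.14, -0.23, -0.03, 0.21, 0.01 and 0.17, and Atf4 by -0.30, -0.53, 0.08, 0.46, -0.04 and 0.33. Rats 4 and 6 were the highest of the group for all 3 genes and rat 2 the lowest, and the same held for Chordc1 and Hsph1. For the other called members rat 4 was highest, but rat 6 was not next. Dnaja1 deviated by 0.06 in rat 3 and 0.05 in rat 6, and Hspb8 by 0.06 and 0.01. Herpud1 deviated by 0.17 in rat 1 and -0.08 in rat 6. Without rats 2 and 4 of this group, the farthest 2 of the 36, limma called 6 members. Herpud1 lost its call without rat 4 at 970 mg/kg (slope 0.66, adjusted p = 0.0641) or rat 3 at 0.1 mg/kg (slope 0.82, adjusted p = 0.0536). Hspb8 lost its call without rat 4 at 97.1 mg/kg (slope 0.36, adjusted p = 0.0752) or vehicle rat 2 (slope 0.36, adjusted p = 0.0541).

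The Dnajb1 fit was repeated with the beta-actin 3′ to 5′ signal difference as a covariate, a measure of RNA integrity that was 1.19 ± 0.08 at 970 mg/kg, 1.12 ± 0.05 at 97.1 mg/kg and 1.12 ± 0.07 in vehicle (SD, n = 6 each). In that fit 4 members were called, and Hsph1, Herpud1 and Hspb8 lost the call. The slope of Hspb8 stayed at 0.41 (adjusted p = 0.0751), while that of Hsph1 was 0.55 with the covariate, against 0.73 without it (adjusted p = 0.161), and that of Herpud1 0.54, against 0.88 (adjusted p = 0.276). The probe set shared by Hspa8 and Haus8l2 had a slope of 0.63 on Dnajb1 (limma adjusted p = 0.00103), and those of Hsp90aa1 and its pseudogene had 0.43 and 0.37 (adjusted p = 0.0204 and 0.105).

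The heat shock element, GAA, TTC and GAA with any 2 bases between each, is the site known for HSF1. It was found in 222 of the 33469 promoters (0.663%), among them Hsph1, Hspa8 and the head-to-head pair Hspd1 and Hspe1, which share it. It had no match in the windows of Dnajb1, Stip1 or Chordc1. The stretch of Hsph1 is shown as the called member that holds the element.
Hsph1, chr12:10427324-10427352 (+), 44 to 16 bases before the start: gccgcagaTTCTGGAAAGTTCtcctcagt

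Outside the list, Rnf125, a ubiquitin ligase, had a slope of -2.34 on Dnajb1 (limma adjusted p = 5.75e-07). It was followed by Coq10b, a coenzyme Q-binding protein, with 1.44, Mat2a, which makes S-adenosylmethionine, with 1.08, Nck1 with 0.51, Zbed4 with 0.70 and Pawr with 0.87. Of the 107 further folding genes 8 were called, all above 0, beside 3.07% of all probe sets (2.47% above 0). They included the Hsp70 cochaperones Bag5 (0.52), Hspa14 (0.50), Dnajb4 (0.54) and Dnajc7 (0.27), and the ER protein Selenos (0.35). The ATF4-linked genes Cebpb (0.94), Cebpg (0.39) and the hepatic hormone Fgf21 (3.51) were also among them.

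None of the 39 other members tracked Asns in limma at an adjusted p under 0.05, beside 0.503% of all probe sets, and 9 had an unadjusted p under 0.05, beside 11.2% of all probe sets. The smallest p values belonged to Hsph1 with a slope of 0.20, Fkbp4 with 0.12 and Trib3 with 0.57 (adjusted p 0.185, 0.199 and 0.229). Atf4 had a slope of 0.15 and Ddit3 one of 0.21, and neither was called. Genes of amino acid synthesis outside the list tracked Asns closely. Phgdh, the first enzyme of serine synthesis, had 7.77 to 9.13 (median 8.28) at 970 mg/kg, against 8.44 to 9.11 (median 8.90) in vehicle, and a slope of 0.72 on Asns (95% interval 0.65 to 0.79, limma adjusted p = 9.22e-17). Psat1, the next enzyme of that pathway, had a slope of 0.77, Slc3a2, a subunit of amino acid exchangers, 0.32, Lars1, leucyl-tRNA synthetase, 0.20, Plekha1 0.44 and Nupr1 0.54.

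Of the 18 further ATF4 targets 8 were called on Asns, all above 0, beside 0.503% of all probe sets. They were led by Phgdh, Psat1, Nupr1 and Eif4ebp1 (0.19). The chaperonin subunits Cct4 and Cct2 had slopes of 0.09 and 0.10, and Atf5, a factor linked to mitochondrial stress, 0.30, all called. The lowest Asns value of the 36 rats was 5.82, in rat 6 at 0.1 mg/kg, and Phgdh had its lowest there too, at 7.39. The amino acid response element TGATGNAA was found in 1139 of the 33469 promoters (3.40%), among them Trib3 and Herpud1 but not Asns. The Trib3 stretch is shown as the ATF4 target of widest spread.
Trib3, chr3:161275539-161275562 (-), 29 to 6 bases before the start: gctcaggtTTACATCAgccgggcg

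**Figure D5:**
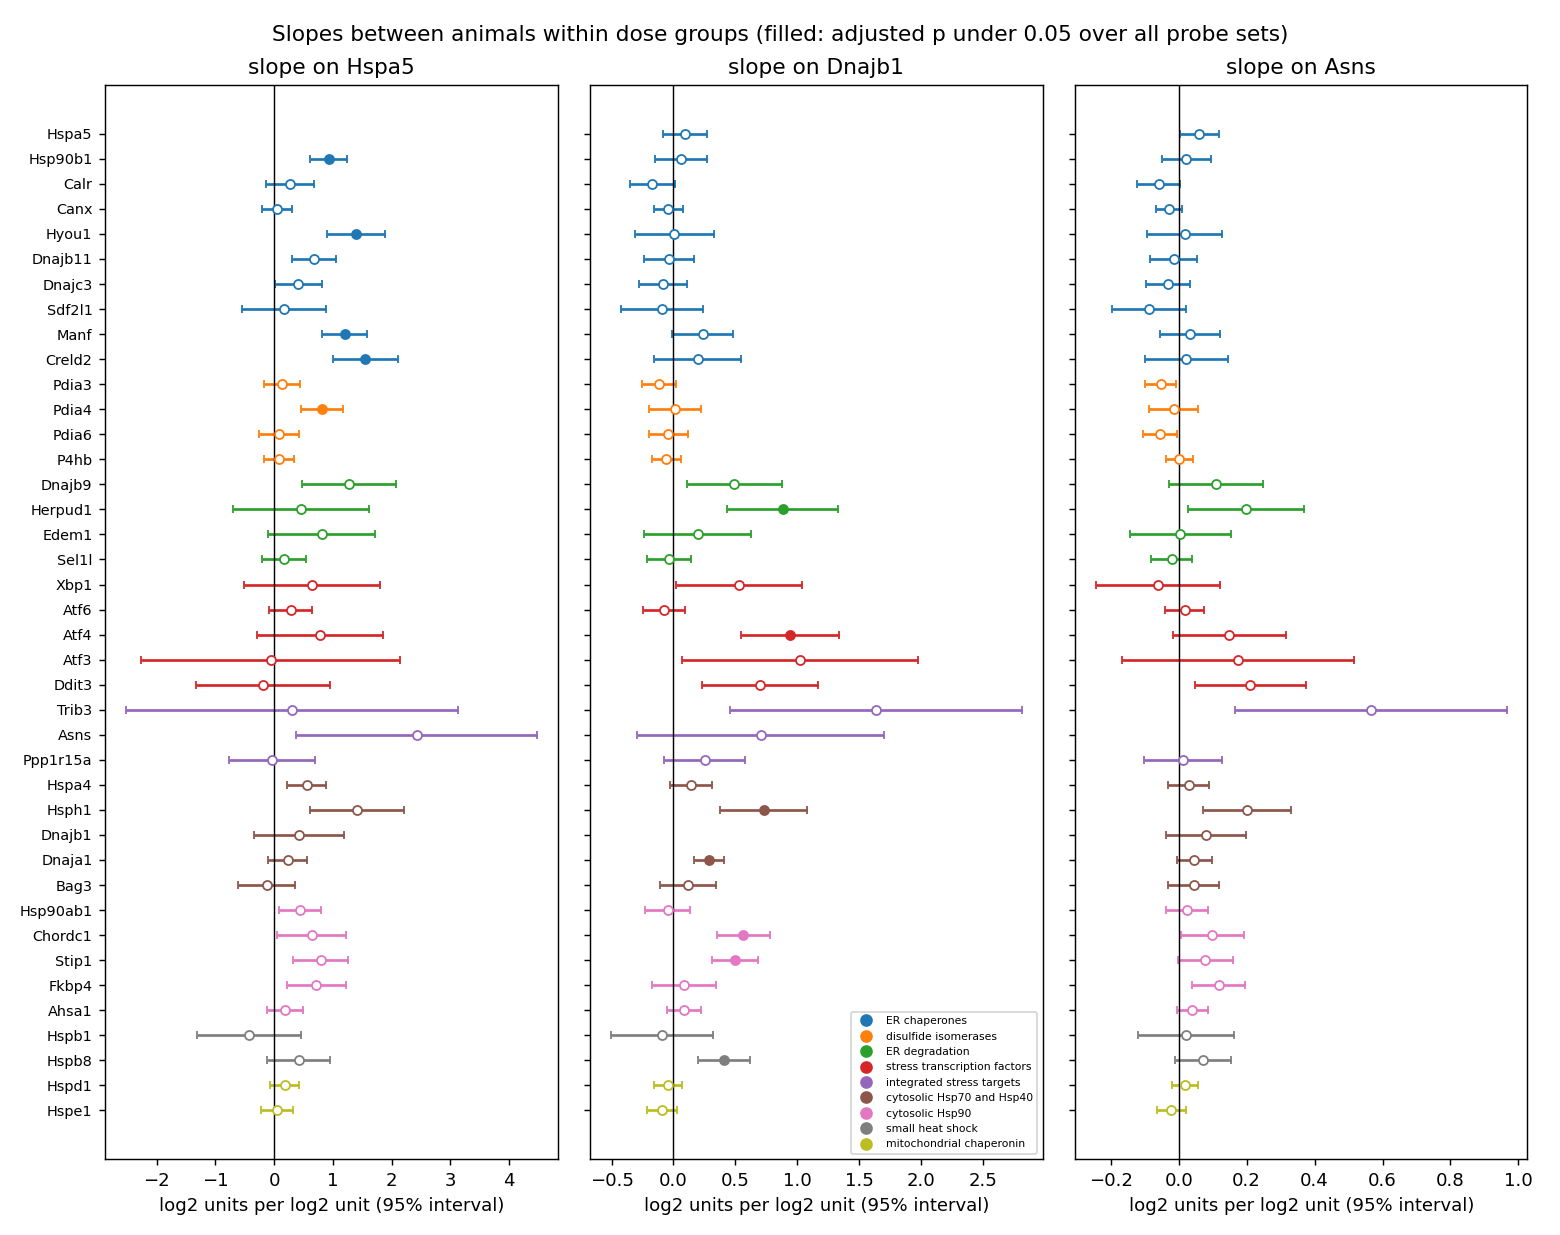
Slope of each folding-stress gene (rows, coloured by role) on Hspa5, Dnajb1 and Asns between rats within dose groups, in log2 units per log2 unit, with 95% intervals from limma (36 rats). Filled points passed an adjusted p under 0.05: 5 on Hspa5, 7 on Dnajb1 and 0 on Asns.

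The 5 genes called on Hspa5 and the 7 called on Dnajb1 have 0 genes in common, and the difference between the slopes was not tested. The level of Dnajb1 had a slope of 0.42 on Hspa5 (95% interval -0.33 to 1.18, limma adjusted p = 0.844). Of 76 listed markers of hepatocytes and of other cell types 65 were measured, and 0 were called in any dose comparison or on Hspa5, Dnajb1 or Asns in limma. At an unadjusted p under 0.05, 2 of the 65 were found at 970 mg/kg (4.87% of all probe sets), 1 at 97.1 mg/kg (5.42%) and 2 at 0.1 mg/kg (4.46%). There were 3 on Hspa5 (7.79%), 4 on Dnajb1 (15.7%) and 6 on Asns (11.2%). Each of these was no larger a share than among all probe sets. The share was larger at 0.97 mg/kg, with 8 of 65 (4.92% of all), and at 9.71 mg/kg, with 6 (5.06%). It was also larger over the 5 doses together, with 5 (4.18%), and for the trend, with 4 (5.70%).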

How the data were processed

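The deposited table holds 1 log2 signal for each probe set and liver RNA sample, which the authors made with RMA and affy, per the submitters' processing notes, with no version stated. They lie between 1.80 and 14.68, with array medians of 5.07 to 5.12, and were used as deposited. After 57 control probe sets were left out, 31042 of 31099 remained. Platform annotation gave 1 gene for 20826 of them, several for 436 and none for 9780. Dim probe sets were kept. In the dose comparisons each probe set was compared only with itself across samples. Levels of different probe sets were set side by side to choose 1 per gene, to match spread by level, and to sum and describe markers.

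The test was a limma model (version 3.58.1, R 4.3.3) of all 36 arrays by group, with each dose set against vehicle (lmFit and eBayes, two-sided, Benjamini-Hochberg over all probe sets, threshold 0.05). An F test, a slope on the dose step (0 to 5) and slopes on Hspa5, Dnajb1 and Asns with group means in the model came from the same values. The method was tested on simulated data, and the outcome of that test is not given here. The members, lists and markers were chosen with earlier results of these data known. Named were, by rule, members past the threshold or else the 3 of smallest p, 10 lead genes with their range over rats, up to 6 other genes per slope, and the further list genes past the threshold or of smallest p. Genes named beyond this were chosen after their values were seen. Scan or hybridisation batches were not analysed here. All 40 members' Entrez IDs matched the RefSeq gene table. Promoters are RefSeq GRCr8 sequence, and 6 members without an entry (Atf3, Atf6, Hsp90aa1, Manf, Pdia3, Pdia6) were not searched. Figures were drawn with matplotlib 3.10.9. The alternatives tried are listed with their effect in the closing section.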

Additional observations from a re-analysis of the deposited data

Results flagged for a closer look

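Of 240 combinations of member and dose group, 8 had 1 rat set apart from the other 5 by Dixon's test, where chance gives about 12 (1 in 20). At 970 mg/kg, rat 4 was high for Herpud1 (log2 signal 11.46, next 10.48) and for Edem1 (12.02, next 11.09). At 97.1 mg/kg, rat 4 was low for Hspa5 (12.22, next 12.37) and rat 6 low for Hspb1 (7.06, next 7.53). At 9.71 mg/kg, rat 4 was high for Hspb1 (7.98, next 7.36) and for Ahsa1 (9.40, next 9.26), and rat 5 was high for Dnajc3 (11.23, next 11.02). At 0.97 mg/kg, rat 6 was high for Dnajc3 (11.11, next 11.00).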

How the results depend on the processing

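Other settings tried were a block for the replicate number, arrays centred on their median, weights per array, a robust prior that follows intensity, a covariate for the beta-actin difference, averaging over the probe sets of a gene, the brighter probe sets alone, a looser threshold of 0.1, the 12 samples of a dose and vehicle alone, no dose group term, and each rat left out in turn. Each dose comparison, the F test, the trend and the Asns slope called 0 members under every one of these that was run for it. Directions, which the F test lacks, were followed only for called members or, without a call, for the 3 of smallest p. None of these reversed, and the directions of the other members were not followed. On Hspa5, 5 members were called in the main setting, 1 to 6 with single rats left out, 0 without vehicle rats 2 and 5, and 0 without the vehicle and 970 mg/kg groups, a setting chosen after seeing the data. On Dnajb1, 7 were called, 6 to 8 with single rats left out, 4 with the beta-actin covariate, and 7 on its other probe set, also chosen after seeing the data. Whether samples of the same replicate number shared a factor was not tested. Among the 90 pairs of same-numbered samples the residuals had r of -0.25 to 0.26, 0.0048 on average, with 15 over 0.1. Of the 36 samples 10 correlated best with their own number. With the replicate block the counts were 4 on Hspa5, 5 on Dnajb1, and 0 on Asns and in every dose comparison, where Pdia4 (adjusted p = 0.244), Hsph1 (0.0969) and Hspb8 (0.0540) lost their calls. Their slopes were 0.76, 0.64 and 0.41 with the block, against 0.82, 0.73 and 0.41 without it. The cause of these losses was not tested. Counts over the whole array moved more. On Hspa5 they were 41, but 20 with the replicate block, 6 to 54 with single rats left out, 64 with the beta-actin covariate, 75 with centred arrays, 78 at the looser threshold, 80 among brighter probe sets and 90 with no dose group term. On Dnajb1 they were 953, but 420 with the beta-actin covariate, 591 to 1216 with single rats left out and 1633 at the looser threshold. On Asns they were 156, but 51 with the replicate block, 97 with the beta-actin covariate, 60 without its 2 most extreme rats, 83 to 181 with single rats left out, 251 among brighter probe sets, 273 with no dose group term and 282 at the looser threshold. The number of arrays limits the precision, most for members of wide spread such as Trib3 and Asns.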
